A study of Mus musculus with 7 samples.

Results

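The respiratory chain genes described here were 94 of the 48795 genes in the count table. They were taken by mouse symbol: the Ndufa, Ndufb, Ndufc, Ndufs, Ndufv, Sdha to Sdhd, Uqcr, Cyc1, Cox4i, Cox5, Cox6, Cox7, Cox8 and Atp5 genes of the nucleus, without the Ndufaf assembly factors and without symbols that mark a pseudogene by the ending -ps. By complex, 36 encoded subunits of complex I, 4 of complex II, 9 of complex III, 18 of complex IV and 16 of complex V, 83 subunit genes in all. Ndufa4 was placed with complex IV, where its protein resides. The other 11 genes that carry these symbols were the complex II assembly factors Sdhaf1 to Sdhaf4, the supercomplex factor Cox7a2l, the Ndufa4 relative Ndufa4l2, the ATP synthase-associated factor Atp5s and 4 processed pseudogenes.

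The respiratory chain sits in the inner mitochondrial membrane. Complex I takes electrons from NADH and complex II takes them from succinate. Both pass them to coenzyme Q, complex III hands them on to cytochrome c, and complex IV (cytochrome c oxidase) gives them to oxygen. Complexes I, III and IV pump protons as they do so, and complex V (ATP synthase) lets the protons flow back to make ATP. Most subunits are encoded in the nucleus and imported, while a few core subunits of complexes I, III, IV and V are encoded in mitochondrial DNA. Striated muscle uses tissue-specific versions of several complex IV subunits, and the nuclear genes are known targets of NRF1, GABPA and the ERR receptors with their coactivator PGC-1alpha.

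RNA-seq was performed on whole tibialis anterior muscle, a fast hindlimb muscle, from male mice aged 6 months. There were 3 WT libraries and 4 libraries from mice lacking miR-486, a microRNA abundant in muscle that is transcribed from within the Ank1 gene. The deletion was germline, made with CRISPR, so that all cells of the animal carried it. The labels give the strain of the WT mice as C57BL/6 and that of the KO mice (genotype miR-486-/-) as FVB N/J, and the WT columns of the count table carry FVB in their names. The methods of the study state that the KO line was moved from FVB/NJ to C57BL/6J by backcrossing and that all mice shared that background. By the labels, strain and genotype cannot be told apart in any value below.

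Between 23839577 and 28168275 reads were assigned to genes per library, and 2.97% to 3.87% of them fell on the 94 respiratory chain genes. WT 3 stood apart. Counts of WT 3 differed from those of WT 1 and WT 2 by 218 to 234 times sampling noise (chi-square per degree of freedom), against 6.99 to 29.7 for the pairs without WT 3 within a genotype. Its share of reads from mitochondrially encoded genes was 22.4%, against 13.0% to 13.3% in the other WT and 15.8% to 17.9% in the KO libraries, and 34.3% of its alignments were not unique, against 24.4% to 30.3% elsewhere. The main fits and counts of calls are therefore given with and without WT 3. Mir486 itself had at most 1 read in any library, so the deletion could not be checked, and its host gene Ank1 was at 264, 269 and 299 CPM in WT and 244 to 273 CPM in KO. CPM here is a gene's count relative to the library total, scaled by TMM (trimmed mean of M-values, which aligns the bulk of genes between libraries). The 9 fast glycolytic fibre markers summed to 113268 to 136148 CPM and the 9 slow and oxidative markers to 3381 to 6347 CPM, the order known for this muscle.

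No respiratory chain gene passed the test between miR-486 KO and WT muscle. Of the 94 genes, 89 had enough reads to be tested, and 0 of the 89 had an adjusted p under 0.05 (edgeR quasi-likelihood F test, Benjamini-Hochberg over 14002 genes), while 2.81% of all tested genes did, 0.964% up and 1.85% down. At an unadjusted p under 0.05 the count was again 0 of 89, against 20.2% of all tested genes. DESeq2 also called 0 of the 93 it fitted, against 3.99% of 25235 genes with any read (1.61% up and 2.38% down). At an unadjusted p under 0.05 it had 3 of the 93, against 11.7%. These shares count genes with very few reads, Cox7b2 without an adjusted p among them, and are not like those of edgeR. The groups failed to overlap for 3 of the 89 genes, against 22.4% of all tested genes. Ndufv1 was higher in the 4 KO libraries than in any WT library (11.0% of all genes), and 2 genes, Sdhaf2 among them, were lower (11.4% of all genes).

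The fitted changes were small and leaned towards lower values in KO, and that lean rested on WT 3. With all 7 libraries, 74 of the 89 genes had a negative log2 fold change and 15 a positive one, with a median of -0.22, beside -0.02 over all tested genes. Without WT 3, 22 of 88 were negative and 66 positive, with a median of 0.06, beside 0.01 over all genes. The 95% confidence interval of the change lay within a 2-fold difference in both directions for 62 of the 81 tested subunit genes with all libraries. Without WT 3 it did so for 80 of 80, and within a 1.5-fold difference for 78 of 80. Without that library 1 of 88 genes passed the threshold, Cox6a2, against 12.7% of 14187 genes tested (6.15% up and 6.55% down), and 5 of 88 had an unadjusted p under 0.05, against 27.6%. The groups then failed to overlap for 12 of the 89, against 38.2% of all genes, with 10 higher in KO (18.9% of all genes) and 2 lower (19.2%).

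**Figure D1:**
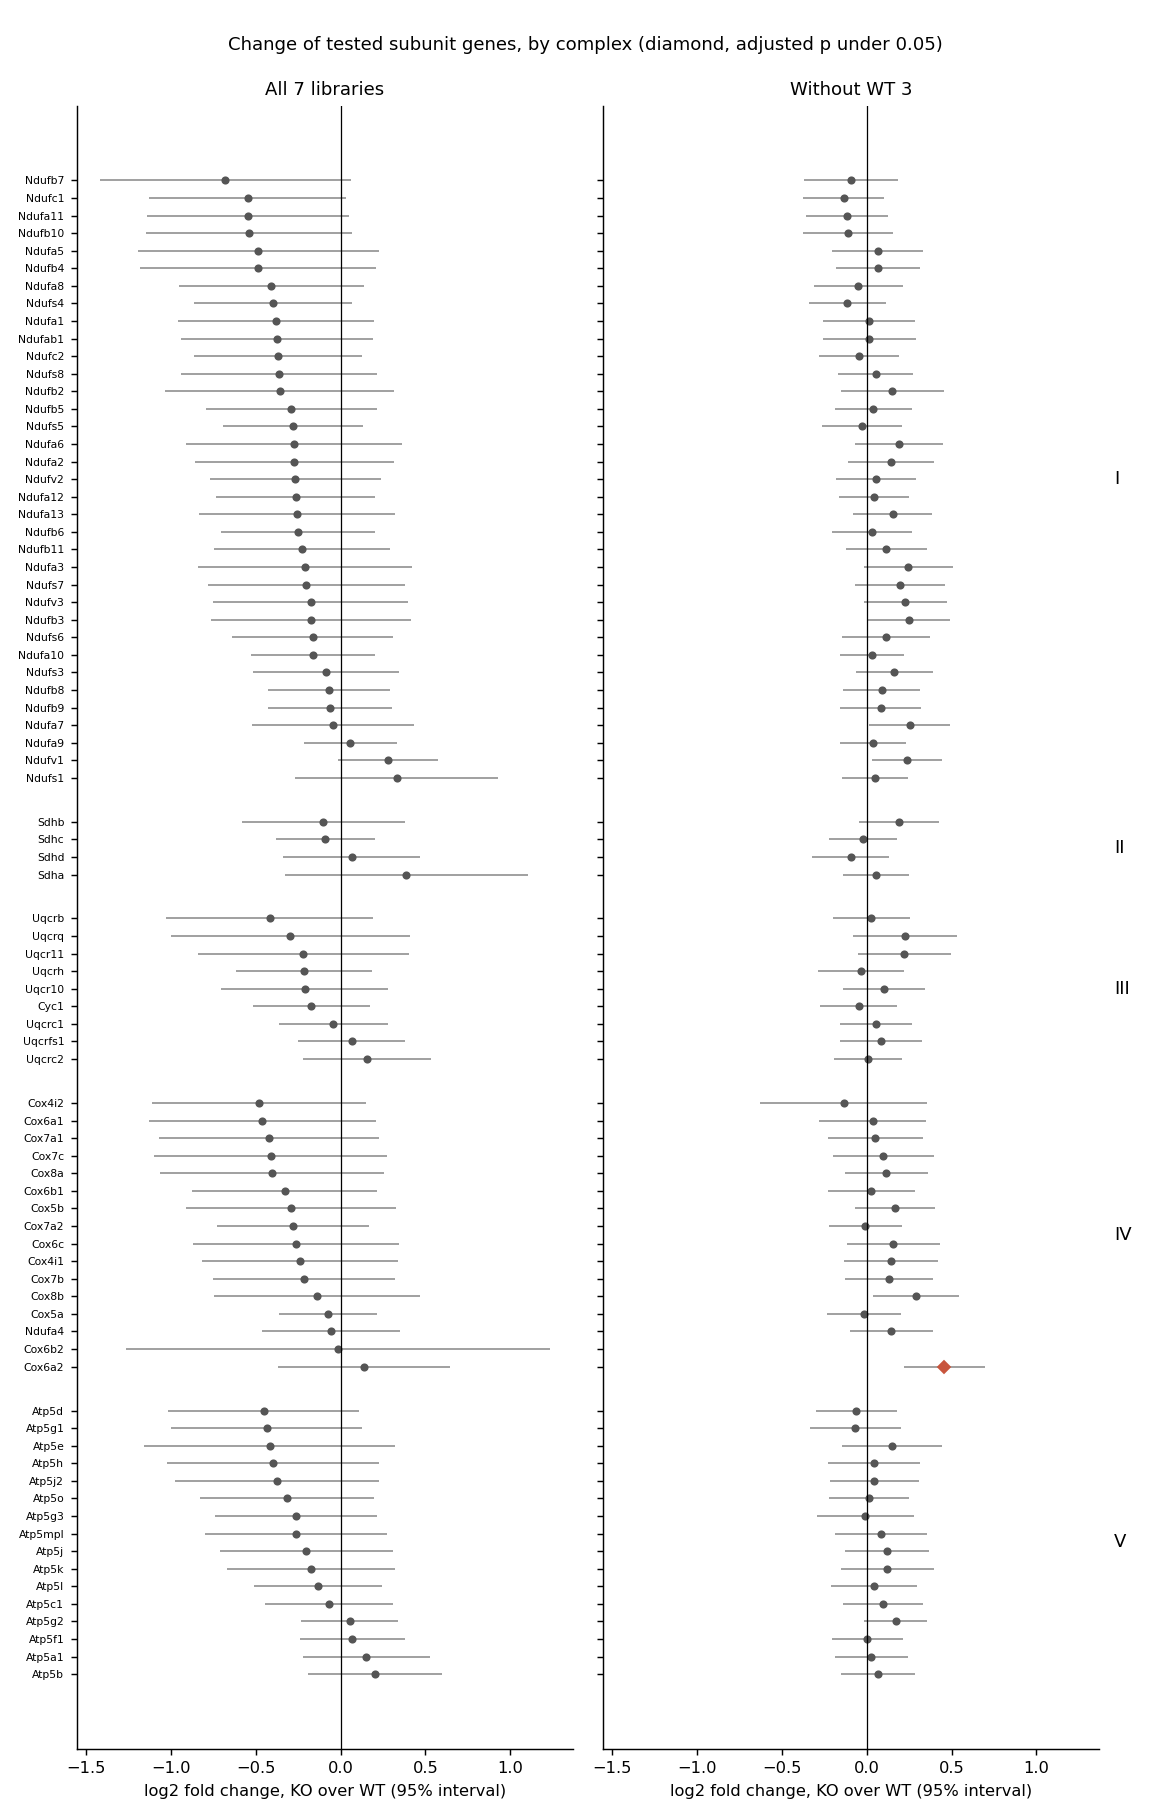
Log2 fold change of KO over WT with its 95% confidence interval for 80 of the 81 tested subunit genes, ordered by complex, with all 7 libraries (left) and without WT 3 (right). When WT 3 is left out the median over the subunit genes goes from -0.24 to 0.05 and the median half-width of the intervals from 0.53 to 0.24, and Cox6a2, which lies farther from 0 than with all libraries, is the gene drawn as a diamond. Cox6b2 has no point on the right because it was too low to be tested.

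Summed over its genes, complex I stood at 7755, 8097 and 12230 CPM in WT 1 to 3 and at 9228, 7461, 8322 and 7619 CPM in KO 1 to 4. Complex IV was at 4268, 4521 and 8075 CPM in WT and at 5764, 4375, 4990 and 4507 CPM in KO. WT 3 was the highest library for both, KO 1 came next, and the remaining WT and KO libraries overlapped. Complex V, the most abundant, had 12460, 13053 and 14534 CPM in WT and 14567, 11998, 13667 and 12268 CPM in KO, and here KO 1 was level with WT 3. Complex III followed the same order with 3768, 4054 and 5176 CPM in WT and 4550, 3678, 4160 and 3760 CPM in KO. Complex II went the other way in WT 3, with 2221, 2231 and 1822 CPM in WT and 2384, 2123, 2436 and 2217 CPM in KO. The log2 ratio of the KO mean to the WT mean was -0.20, 0.13, -0.10, -0.20 and -0.02 for complexes I to V with all libraries. Against WT 1 and WT 2 alone it was 0.04, 0.04, 0.05, 0.16 and 0.04.

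**Figure D2:**
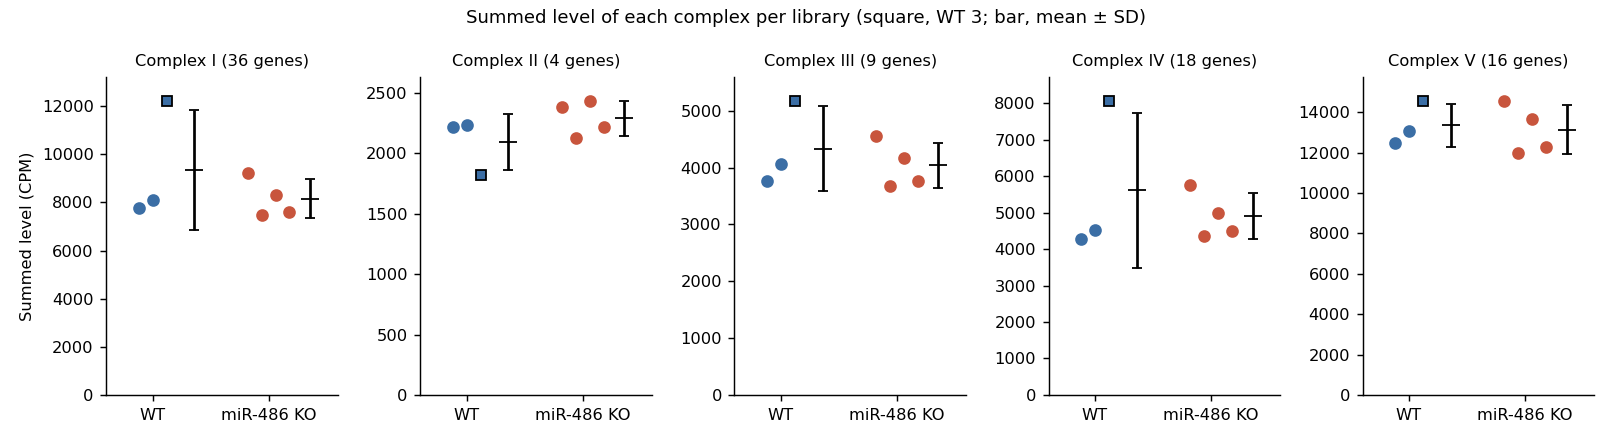
Summed level (CPM) of the genes of each complex in every library, with the mean and SD of the 3 WT and 4 KO libraries beside the points. WT 3 (square) is the highest library for complexes I, III and IV and the lowest for complex II, and the KO points lie around those of WT 1 and WT 2.

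The deviation of WT 3 within the chain followed transcript length. Of the 81 tested subunit genes, 71 were highest in WT 3 of all libraries and 8 were lowest there. The 27 genes with a main transcript shorter than 600 nt were all higher in WT 3 than in the mean of WT 1 and WT 2, with a median log2 difference of 1.02. The 33 genes from 600 nt to under 1200 nt were also all higher, with a median of 0.84. Among the 21 genes of 1200 nt or longer the median was 0.18 and 12 were higher, the lowest being Sdha at -1.42 and Ndufs1 at -1.13. Across the 81 genes, which share these libraries, Pearson's r between log2 length and the log2 difference was -0.65 and Spearman's rho -0.53. Over 12577 tested protein-coding genes the same r was -0.35, with medians of 0.94, 0.56 and -0.09 in the same length classes. KO 1 leaned the same way against KO 2 to KO 4, with medians of 0.35, 0.30 and 0.18 in the length classes. Between KO and the mean of WT 1 and WT 2 the medians were 0.11, 0.05 and 0.03. The part of transcript length in the levels was not tested.

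**Figure D3:**
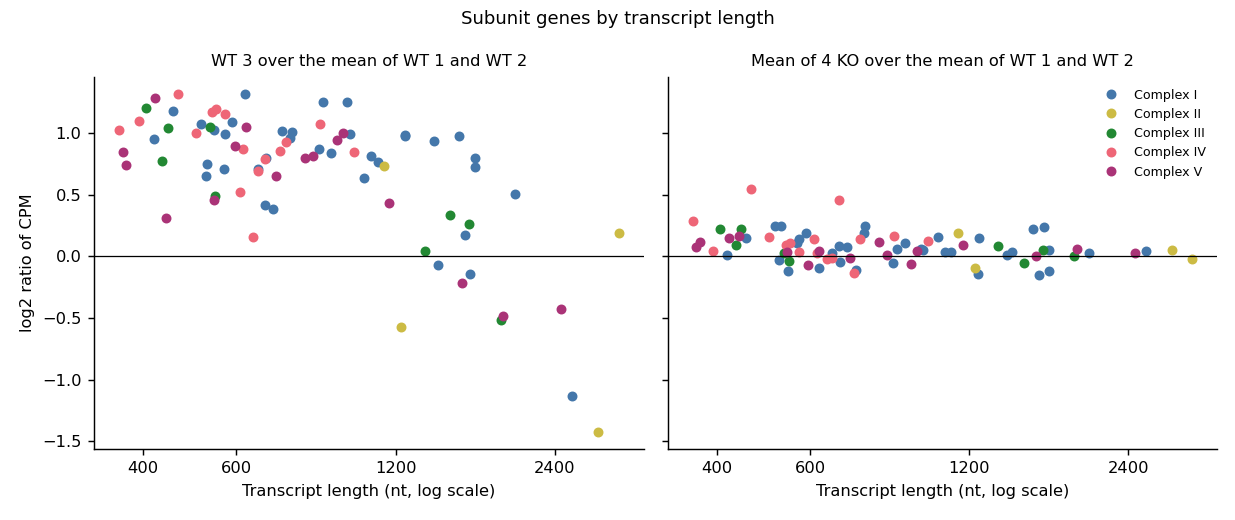
Log2 ratio of CPM against the length of the main transcript (nt, log axis) for the 81 tested subunit genes, coloured by complex: WT 3 over the mean of WT 1 and WT 2 (left) and the mean of the 4 KO libraries over the same WT mean (right). On the left short transcripts lie near 1 and the longest reach -1.42; on the right the points lie within -0.15 and 0.55.

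Complex I contributes the most genes. Its 7 core subunits in the nucleus carry the flavin and iron-sulfur centres, and its 29 accessory subunits surround them. None of the 36 passed the test; 33 had a negative and 3 a positive log2 fold change, with a median of -0.26 and a range from -0.68 for Ndufb7 to 0.33 for Ndufs1. Without WT 3 the median was 0.05, with 27 positive, and again 0 of 36 passed. The core subunits had medians of -0.20 and 0.06 and the accessory subunits -0.27 and 0.04 with and without WT 3.

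Ndufv1 encodes the subunit that binds FMN and accepts electrons from NADH, and it had the smallest p in the chain with all libraries. It was at 430, 431 and 389 CPM in WT and at 560, 468, 524 and 474 CPM in KO. The 4 KO libraries were all above the 3 WT libraries, and WT 3 was low rather than high. The log2 fold change was 0.28 (SE 0.13, 95% interval -0.01 to 0.58), with an adjusted p of 0.268 by edgeR, and without WT 3 it was 0.24 (SE 0.09) with an adjusted p of 0.129.

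Ndufc1 and Ndufb7, accessory subunits of the membrane arm, had the next smallest p values. Ndufb7 was at 115, 138 and 313 CPM in WT and 143, 106, 113 and 109 CPM in KO. Ndufc1 was at 160, 183 and 339 CPM in WT and 182, 141, 154 and 146 CPM in KO. In both, the KO libraries overlapped WT 1 and WT 2, and WT 3 was above all other libraries. Their log2 fold changes moved from -0.68 (SE 0.32) to -0.09 and from -0.55 (SE 0.25) to -0.14 without WT 3, and the adjusted p values with all libraries were 0.286 and 0.273 by edgeR. Ndufb9, an accessory subunit, had the highest level per length in the complex, 679 RPKM (CPM per kilobase of the main transcript), against a median of 249 RPKM. Its log2 fold change was -0.06 (SE 0.16), and 0.08 without WT 3. The lowest level was that of Ndufs5, 23.2 RPKM. Of the 50-base words of its transcript 41.2% also occur in another gene's transcripts, so that reads from it can be counted as not unique. The part of shared sequence in its level was not tested.

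**Figure D4:**
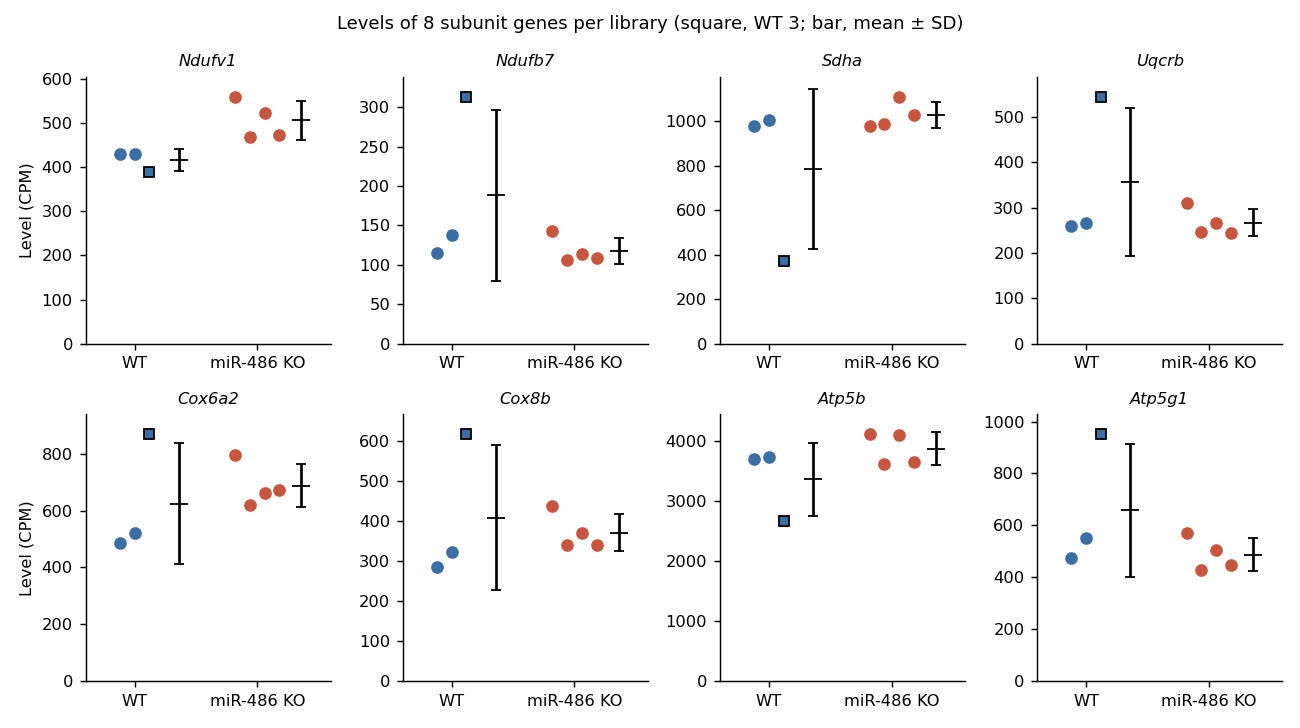
Level (CPM) of 8 subunit genes in every library, with the mean and SD of each genotype beside the points. WT 3 (square) is far above WT 1 and WT 2 for Ndufb7, Uqcrb, Cox6a2, Cox8b and Atp5g1 and far below them for Sdha and Atp5b, and the 4 KO points of Ndufv1 lie above the 3 WT points.

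Complex II, succinate dehydrogenase, is wholly encoded in the nucleus and also belongs to the tricarboxylic acid cycle. None of its 4 genes passed the test. Sdha, the flavoprotein that oxidises succinate, was at 979, 1005 and 370 CPM in WT and 978, 989, 1109 and 1028 CPM in KO. Its low WT mean came from WT 3, and the log2 fold change was 0.39 (SE 0.31, 95% interval -0.33 to 1.10) with that library and 0.05 (SE 0.09) without it. Sdhb, the iron-sulfur protein, was at 448, 459 and 755 CPM in WT and 580, 463, 551 and 474 CPM in KO. Without WT 3 the KO libraries were all above the WT libraries, with a log2 fold change of 0.19 (SE 0.11) and an adjusted p of 0.271 by edgeR. Sdhc, a membrane anchor, was at 372, 371 and 422 CPM in WT and 399, 331, 375 and 355 CPM in KO, with overlapping groups and a log2 fold change of -0.09 (SE 0.13), or -0.02 without WT 3.

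Complex III passes electrons from coenzyme Q to cytochrome c through its Rieske protein and cytochrome c1. None of its 9 genes passed the test, with a median log2 fold change of -0.21 with all libraries and 0.06 without WT 3. Uqcrb, an accessory subunit at the coenzyme Q side, was at 259, 266 and 545 CPM in WT and 311, 247, 267 and 245 CPM in KO. Its log2 fold change was -0.42 (SE 0.27), and 0.03 (SE 0.10) without WT 3. Uqcrh, the hinge protein that aids the contact of cytochrome c1 with cytochrome c, had the highest level of the complex, 778 RPKM, and was at 401, 414 and 571 CPM in WT and 470, 361, 405 and 355 CPM in KO. Cyc1, cytochrome c1 itself, was at 509, 548 and 667 CPM in WT and 574, 461, 530 and 475 CPM in KO. The groups of all these genes overlapped. Uqcrh and Cyc1 had log2 fold changes of -0.22 (SE 0.18) and -0.17 (SE 0.15), and -0.03 and -0.05 without WT 3.

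Complex IV, cytochrome c oxidase, held the single gene of the chain whose call turned on WT 3. Of its 18 nuclear genes 16 were tested and 0 passed, with a median log2 fold change of -0.27, and WT 3 was the highest library for 16 of 16. Without WT 3 the median was 0.11 and 1 of 15 passed. That gene was Cox6a2, the version of subunit 6A found in heart and skeletal muscle (chr7:128205435-128206387, minus strand). Cox6a2 was at 485, 521 and 869 CPM in WT and 797, 621, 662 and 673 CPM in KO. All KO libraries were above WT 1 and WT 2 and below WT 3. With all libraries the log2 fold change was 0.14 (SE 0.22, 95% interval -0.37 to 0.64), with an adjusted p of 0.739 by edgeR. Without WT 3 it was 0.46 (SE 0.11, 95% interval 0.22 to 0.70), with an adjusted p of 0.0205 by edgeR. The voom fit of limma with library quality weights also put it past the threshold (0.38, adjusted p = 0.0231), as the single respiratory chain gene of 89, against 16.8% of all genes in that fit (7.99% up and 8.77% down). At an unadjusted p under 0.05 that fit had 2 of the 89, against 31.2% of all genes. The complex IV median by voom was 0.03, nearer to the fit without WT 3, so the voom call is not separate from leaving out WT 3. DESeq2 with all libraries did not call Cox6a2 (log2 fold change 0.18, adjusted p = 0.717). Cox6a1, the common version, was at 13.1, 12.5 and 28.5 CPM in WT and 16.5, 12, 12.3 and 11.5 CPM in KO, and its log2 fold change without WT 3 was 0.04 (SE 0.14).

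Some fibre and cell type markers differed between the same libraries. Of the 9 slow and oxidative fibre markers, 6 had a negative and 3 a positive log2 fold change, with a median of -0.57, and 1 of 9 was down, against 1.85% of all genes. That marker was the slow myosin light chain Myl2, which fell by 2.93 on the log2 scale (SE 0.39, adjusted p = 0.0147 by edgeR). Without WT 3 the median was -0.79. Of the 9 markers 4 were down (Myl2, Myh7, Tnni1 and Atp2a2), against 6.55% of all genes, and 1 up (Myl3), against 6.15%. Myl2 was at 4.03, 8.86 and 12.6 CPM in WT and 0.874 to 1.58 CPM in KO. Myh7 was at 6.45, 21.7 and 0.535 CPM in WT and 1.27 to 1.92 CPM in KO, so that WT 3 was below all KO libraries. Tnni1 was at 3.14, 8.15 and 2.88 CPM in WT and 1.64 to 3.16 CPM in KO, with overlapping groups. Atp2a2 was at 54.3, 63.1 and 32.9 CPM in WT and 31.2 to 35.2 CPM in KO. Myl3 was at 9.25, 15.0 and 24.3 CPM in WT and 15.4 to 35.7 CPM in KO. Unlike the median, the summed level of the list was higher in KO, at 5013 to 6347 CPM, than in WT, at 3381 to 4725 CPM. Most of the sum was the oxygen carrier myoglobin (Mb), at 4146 to 5454 CPM in KO and 2716 to 3870 CPM in WT. The log2 fold change of Mb was 0.48 (SE 0.19, adjusted p = 0.209 by edgeR), and 0.55 (adjusted p = 0.054) without WT 3. The 6 fibro-adipogenic progenitor markers summed to 809 to 900 CPM in WT and 389 to 572 CPM in KO, with 2 of 6 down, against 1.85% of all genes, and again 2 of 6 without WT 3, against 6.55%. Both were collagens, Col1a1 (log2 fold change -2.01) and Col3a1 (-1.72), which made up most of the sum in WT, while Dcn (0.34), Pdgfra (0.06) and Pi16 (0.40) had positive values and Ly6a a negative one (-0.49) that did not pass the test. The 6 endothelial markers summed to 265 to 323 and 199 to 230 CPM, with 1 of 6 down, and 4 of 6 without WT 3, beside the same shares. Of the 9 fast glycolytic markers 0 passed with all libraries. Without WT 3, 1 of 9 was down, against 6.55% of all genes (Mylpf, log2 fold change -0.45, adjusted p = 0.0466 by edgeR). The white adipocyte, myeloid, erythroid and Schwann cell lists had 0 calls by edgeR with and without WT 3. In bulk tissue fewer cells of a type and less RNA per cell cannot be told apart. The part of these shifts in the Cox6a2 value was not tested.

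Cox8b, the muscle version of subunit 8, had a like pattern. Cox8b was at 285, 323 and 617 CPM in WT and 437, 339, 369 and 340 CPM in KO, again with the KO libraries between WT 2 and WT 3. Its log2 fold change was -0.14 (SE 0.26) with all libraries and 0.29 (SE 0.11, 95% interval 0.04 to 0.55) without WT 3, with adjusted p values of 0.783 and 0.129 by edgeR. Cox8b is also used as a marker of brown fat, whose defining gene Ucp1 was at 0 in all 7 libraries, with Elovl3 at 0.159 CPM or less. Of the other genes listed as brown fat markers, the groups overlapped for Dio2, at 1.57 to 3.08 CPM, and Cpt1b, at 1.94 to 3.47 CPM. As with Cox8b, a level of Cpt1b in whole muscle cannot be assigned to fat cells. Cidea was at 0.901 CPM or less, with a log2 fold change of -1.44 (adjusted p = 0.0715 by edgeR), or -1.42 (adjusted p = 0.0448) without WT 3. The part of fat cells in the Cox8b level was not tested. Cox8a, the common version, was at 17.2, 18.1 and 40.3 CPM in WT and 22.0, 18.2, 19.1 and 16.9 CPM in KO, with a log2 fold change of -0.40 (SE 0.29), or 0.11 (SE 0.11) without WT 3. Cox7a1, the muscle version of subunit 7A, was at 325, 350 and 724 CPM in WT and 417, 303, 363 and 312 CPM in KO. Its groups overlapped, and the log2 fold change was -0.42 (SE 0.28) with all libraries and 0.05 (SE 0.13) without WT 3.

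Promoters are shown for Cox8b and Cox8a, whose levels per length differed 27.8-fold, and for Cox6a1, the common partner of Cox6a2 (RefSeq, GRCm38.p6, minus strand of each chromosome, 300 bases from 250 before to 50 after the start). Capitals mark the motifs that were searched on both strands: the NRF1 palindrome, GABPA (CCGGAAG), ERR (TCAAGGTCA), YY1 and the muscle E-box (CAGCTG).
Cox8b, chr7:140900397-140900696: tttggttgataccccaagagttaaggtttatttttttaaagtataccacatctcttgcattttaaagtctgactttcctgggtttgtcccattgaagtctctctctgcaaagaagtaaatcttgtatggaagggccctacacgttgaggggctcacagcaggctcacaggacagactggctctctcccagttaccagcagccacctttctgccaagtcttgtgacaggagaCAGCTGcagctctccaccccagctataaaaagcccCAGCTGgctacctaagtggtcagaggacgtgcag
Cox8a, chr19:7217567-7217866: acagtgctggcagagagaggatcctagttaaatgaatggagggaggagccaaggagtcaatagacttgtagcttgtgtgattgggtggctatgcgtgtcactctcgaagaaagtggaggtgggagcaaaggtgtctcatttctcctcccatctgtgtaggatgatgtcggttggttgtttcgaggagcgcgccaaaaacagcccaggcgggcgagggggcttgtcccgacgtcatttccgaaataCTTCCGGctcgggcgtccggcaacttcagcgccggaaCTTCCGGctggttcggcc
Cox6a1, chr5:115348909-115349208: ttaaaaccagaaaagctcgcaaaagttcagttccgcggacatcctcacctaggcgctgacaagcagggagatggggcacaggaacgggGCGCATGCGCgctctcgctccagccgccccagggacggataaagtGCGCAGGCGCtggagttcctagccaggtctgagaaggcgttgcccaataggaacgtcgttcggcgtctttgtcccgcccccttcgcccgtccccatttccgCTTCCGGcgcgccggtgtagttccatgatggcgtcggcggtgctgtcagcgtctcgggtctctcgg
The Cox8b window held 2 E-boxes and none of the other motifs, the Cox8a window 2 GABPA motifs, and the Cox6a1 window 2 NRF1 motifs and 1 GABPA motif. Of the 94 genes, 71 had a promoter in this table. The NRF1 motif was in 26.8% of the 71, against 5.19% of 27025 genes and 11.1% of the 10357 genes that were tested and had a promoter. The GABPA motif was in 26.8%, against 9.93% and 19.4%, and YY1 in 5.63%, against 0.755% and 1.77%. The E-box was in 8.45%, against 18.3% and 18.4%, and the ERR motif in 2.82%, against 0.466% and 0.328%. A match describes the letters of the window and not a bound site.

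The other subunits of complex IV did not pass the test with or without WT 3. Cox4i1, the common version of the largest nuclear subunit, was at 554, 611 and 1108 CPM in WT and 753, 559, 677 and 576 CPM in KO. Cox4i2, its lung and hypoxia version, was at 2.18, 2.18 and 3.95 CPM in WT and 1.77, 1.59, 1.98 and 2.59 CPM in KO, with a log2 fold change of -0.48 (SE 0.28) that was the lowest of the complex, or -0.14 without WT 3. Cox6c, with 1152 RPKM the highest of the complex, was at 481, 480 and 959 CPM in WT and 638, 472, 553 and 472 CPM in KO. In all these genes the KO libraries overlapped WT 1 and WT 2. Cox6b1, Cox7a2, Cox7b and Ndufa4 had log2 fold changes between -0.33 and -0.05 with all libraries and between -0.01 and 0.15 without WT 3. The testis versions had the lowest levels of the complex: Cox6b2 was at 0.150 to 0.535 CPM, Cox7b2 at 0 in all libraries but KO 1 and KO 4, and Cox8c at 0 in all 7.

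Ratios of paralogous genes within a library leave out any factor that scales all genes of that library alike. A deviation that differs between the genes of a pair stays in the ratio. The log2 difference of WT 3 from the mean of WT 1 and WT 2 was 0.79 for Cox6a2 and 1.15 for Cox6a1. It was 1.02 for Cox8b and 1.19 for Cox8a. Per length, Cox6a2 exceeded Cox6a1 37.7-fold on the geometric mean over the 7 libraries. The log2 ratio of Cox6a2 to Cox6a1 was 4.96, 5.13 and 4.68 in WT and 5.35, 5.44, 5.49 and 5.62 in KO. For Cox8b over Cox8a it was 4.67, 4.77 and 4.55 in WT and 4.92, 4.83, 4.88 and 4.94 in KO. In both pairs the 4 KO libraries were above the 3 WT libraries, with WT 3 included, by 0.55 and 0.24 on the mean. The groups did not overlap in these 2 of 8 pairs, and no test was made of the ratios. The levels of single genes did not overlap for 22.4% of all tested genes, and 2 of 8 is near that share. That share is of single genes, and a share over ratios of other gene pairs was not computed. Cox7a1 exceeded Cox7a2 2.88-fold, and its log2 ratio of 1.40, 1.47 and 1.84 in WT and 1.56, 1.41, 1.55 and 1.44 in KO overlapped. The log2 ratio of Ndufa4l2, a hypoxia-induced relative, to Ndufa4 was -7.65 to -7.39 in WT and -8.16 to -7.53 in KO, which also overlapped, as did Cox4i2 over Cox4i1, Cox6b2 over Cox6b1 and both Atp5g pairs.

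**Figure D5:**
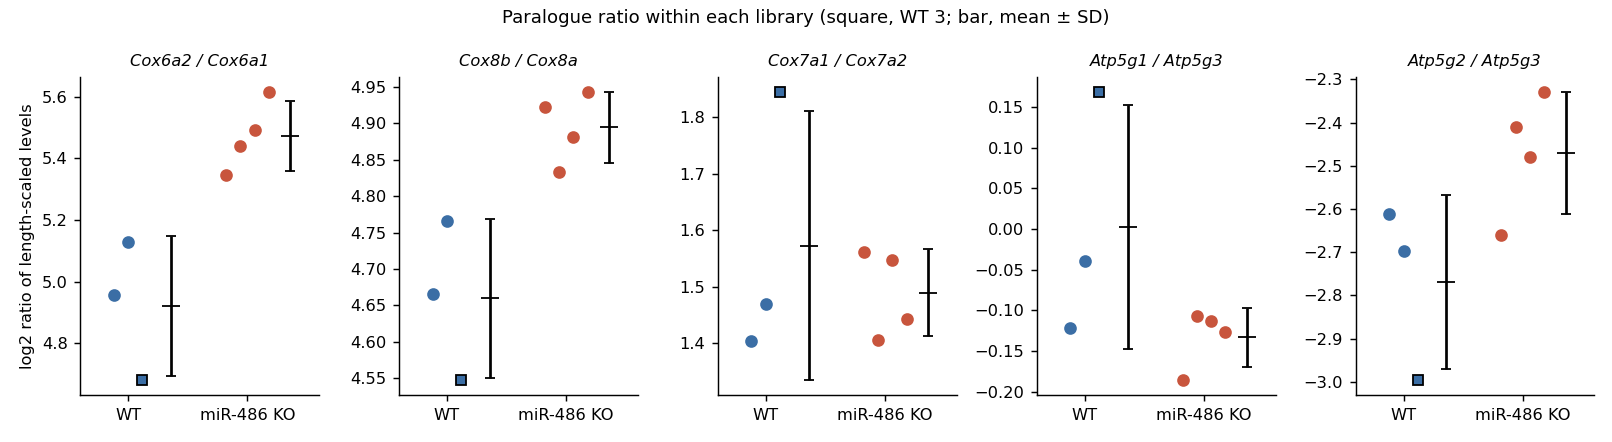
Log2 ratio of the length-scaled levels of paralogues within each library, with the mean and SD of each genotype beside the points; the vertical axes differ between panels and do not start at 0. The KO points lie above all WT points, WT 3 (square) included, for Cox6a2 over Cox6a1 and Cox8b over Cox8a, and overlap them for Cox7a1 over Cox7a2, Atp5g1 over Atp5g3 and Atp5g2 over Atp5g3.

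Complex V, the ATP synthase, consists of the catalytic F1 head, stalks and the rotating ring in the membrane. None of its 16 genes passed the test, with a median log2 fold change of -0.23 with all libraries and 0.04 without WT 3. Atp5b, the catalytic beta chain, had the highest level per length of the tested subunit genes, 1906 RPKM. It was at 3696, 3727 and 2657 CPM in WT and 4108, 3615, 4103 and 3652 CPM in KO. Atp5a1, the alpha chain, was at 3253, 3385 and 2473 CPM in WT and 3607, 3128, 3540 and 3218 CPM in KO. Both long transcripts were lowest in WT 3, and the KO libraries straddled WT 1 and WT 2. Their log2 fold changes were 0.20 (SE 0.17) and 0.15 (SE 0.16), or 0.07 (95% interval -0.15 to 0.28) and 0.03 (95% interval -0.19 to 0.24) without WT 3.

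Atp5d, the delta chain of the central stalk, was at 285, 316 and 578 CPM in WT and 331, 252, 289 and 278 CPM in KO. Its log2 fold change of -0.45 (SE 0.25, adjusted p = 0.344 by edgeR) was the lowest of the complex and became -0.06 without WT 3. Atp5h, subunit d of the peripheral stalk, was at 454, 498 and 982 CPM in WT and 584, 432, 500 and 441 CPM in KO, with log2 fold changes of -0.40 and 0.04. Subunit c of the ring is encoded by Atp5g1, Atp5g2 and Atp5g3, which make the same mature protein. Atp5g1 was at 472, 549 and 951 CPM in WT and 569, 427, 504 and 446 CPM in KO. Atp5g3 was at 616, 676 and 1013 CPM in WT and 775, 551, 653 and 583 CPM in KO. The KO libraries of both overlapped WT 1 and WT 2, and the log2 fold changes without WT 3 were -0.07 and -0.01. Atp5g2 was lower, at 62.2, 64.4 and 78.4 CPM in WT and 75.7, 64.0, 72.4 and 71.7 CPM in KO, with log2 fold changes of 0.05 and 0.17. Near-identical copies make these counts uncertain, since 66.0% of the 50-base words of Atp5g1 and 100% of those of Atp5g2 also occur in other genes' transcripts. The share was over 20% for 21 of the 81 tested subunit genes, Atp5l (84.8%), Cox7c (53.0%) and Uqcrb (43.4%) among them.

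Among the 11 other genes taken by symbol, 8 were tested and 0 passed. Cox7a2l, which helps complexes III and IV to join, was at 61.6, 72.3 and 71.5 CPM in WT and 85.1, 70.9, 75.5 and 71.0 CPM in KO, with a log2 fold change of 0.14 (SE 0.12), or 0.18 (SE 0.10) without WT 3. Sdhaf2, which attaches FAD to Sdha, was at 52.4, 57.9 and 54.8 CPM in WT and 50.5, 46.8, 51.8 and 50.2 CPM in KO. Its groups did not overlap, and WT 3 lay between WT 1 and WT 2, with a log2 fold change of -0.14 (SE 0.10) and an adjusted p of 0.444 by edgeR, or -0.14 and 0.272 without WT 3. Ndufa4l2 was at 4.03 to 6.91 CPM in WT and 2.90 to 4.97 CPM in KO. The pseudogene Cox6c2 was at 0.358 to 0.782 CPM, and Ndufa11b, Ndufb4c and Ndufs6b were too low to be tested.

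Genes that work with the chain were read from the same fit. Of the 17 regulators of mitochondrial biogenesis, 2 rose and 0 fell, against 0.964% and 1.85% of all genes. Without WT 3 the counts were 3 and 0, against 6.15% and 6.55%, with Tfb2m as the additional gene. Ppargc1a, which encodes PGC-1alpha, was at 48.4, 44.5 and 45.4 CPM in WT and 70.5, 71.6, 77.5 and 75.2 CPM in KO, a log2 fold change of 0.68 (SE 0.10, adjusted p = 0.0185 by edgeR), or 0.67 without WT 3. Esrrb, an ERR receptor, was at 3.65, 4.09 and 3.33 CPM in WT and 6.65, 5.72, 8.86 and 7.48 CPM in KO, a log2 fold change of 0.96 (SE 0.18, adjusted p = 0.0332 by edgeR), or 0.90 without WT 3. For both, WT 3 lay with the other WT libraries and the groups did not overlap. Leaving out WT 2 or any KO library took the adjusted p of Ppargc1a by edgeR to 0.0636 to 0.0877, and leaving out any library but WT 3 took that of Esrrb to 0.0672 to 0.113. Of the 18 tricarboxylic acid cycle genes 1 rose and 0 fell with all libraries, against 0.964% and 1.85% of all genes. Without WT 3 there were 2 up and 1 down (Dlst), against 6.15% and 6.55%. The gene that rose in both fits was Idh2, the mitochondrial NADP-dependent isocitrate dehydrogenase. Idh2 was at 71.3, 53.5 and 62.2 CPM in WT and 253, 186, 211 and 176 CPM in KO, a log2 fold change of 1.73 (SE 0.18, adjusted p = 0.00721 by edgeR), with the same 1.73 without WT 3. Suclg2, a chain of succinyl-CoA synthetase, had a log2 fold change of 0.73 (SE 0.17, adjusted p = 0.0631 by edgeR) and 0.55 (adjusted p = 0.0015) without WT 3.

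The other lists had 0 genes past the threshold with all libraries, against 2.81% of all tested genes, a share at which short lists often hold 0. There were 0 of 15 complex I assembly factors, 0 of 27 assembly factors of complexes III to V and 0 of 17 electron carrier and coenzyme Q genes. Likewise 0 of 6 carriers of ADP, ATP and phosphate, 0 of 7 cristae genes and 0 of 7 mitochondrially encoded genes passed. At an unadjusted p under 0.05 the electron carrier list had 8 of 17, against 20.2% of all genes. DESeq2 called 3 of the 17 up and 1 down with all libraries, against 1.61% and 2.38% of the wider set with any read. Without WT 3 the electron carrier list had 5 up and 1 down by edgeR, against 6.15% and 6.55% of all genes. The genes that were up were Coq10b (log2 fold change 1.27), Coq8a, Etfa (0.37), Etfdh (0.34) and Coq2 (0.30), and Cycs was down. In that fit 2 of 27 assembly factors of complexes III to V were down (Cox15 and Coa3), against 6.55% of all genes. Of the 6 carriers 1 was up (Slc25a5), against 6.15%, and the complex I assembly factors and the cristae genes again had 0. By voom 1 of 15 complex I assembly factors and 3 of 27 of complexes III to V were down, against 8.77% of all genes, and 0 were up. In the lists with no call in either edgeR fit, the smallest p values for complex I assembly factors were those of Ndufaf3 and Tmem186. Ndufaf3 had log2 fold changes of -0.42 with and -0.24 without WT 3, and Tmem186 had 0.36 and 0.18. For the cristae genes they were those of Apool (-0.21 and -0.07) and Chchd6 (0.28 and 0.35). Bcs1l, which inserts the Rieske protein into complex III, had -0.31 and -0.24, and the outer membrane channels Vdac1 and Vdac2 had 0.42 and 0.21, and -0.22 and -0.18. Coq8a, a kinase-like factor of coenzyme Q synthesis, was at 625, 562 and 351 CPM in WT and 956, 780, 993 and 816 CPM in KO, with log2 fold changes of 0.79 (SE 0.22, adjusted p = 0.0936 by edgeR) with and 0.58 (adjusted p = 0.0106) without WT 3. Cycs, cytochrome c, was at 399, 392 and 509 CPM in WT and 345, 278, 318 and 283 CPM in KO, and its groups did not overlap. The log2 fold change of Cycs was -0.50 (SE 0.15, adjusted p = 0.118 by edgeR), and -0.36 (adjusted p = 0.0377) without WT 3. Coa3, a complex IV assembly factor, was at 51.6, 53.1 and 81.9 CPM in WT and 45.0, 36.6, 38.0 and 39.8 CPM in KO. Its log2 fold change was -0.64 (SE 0.18, adjusted p = 0.0971 by edgeR), and -0.39 (adjusted p = 0.0189) without WT 3. Coq8a, Cycs and Coa3 were past the threshold by DESeq2 with all libraries, with adjusted p values of 0.012, 0.0303 and 0.0313.

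The partners of the nuclear subunits that are encoded in mitochondrial DNA could be read in part. Of the 13 genes, 7 were tested. With all libraries 3 had a positive and 4 a negative log2 fold change, with a median of -0.07 and 0 past the threshold. Without WT 3 all 7 were positive, with a median of 0.32 and 3 past the threshold (mt-Nd2, mt-Nd4 and mt-Nd6), against 6.15% of all genes up. mt-Nd4, a complex I subunit, was at 9122, 9398 and 21539 CPM in WT and 13826, 11647, 12170 and 11337 CPM in KO. The KO libraries lay above WT 1 and WT 2 and below WT 3, and the log2 fold change of mt-Nd4 was -0.12 (SE 0.31) with all libraries and 0.41 (adjusted p = 0.0411 by edgeR) without WT 3. mt-Cytb, the complex III subunit that holds the coenzyme Q sites, had log2 fold changes of -0.21 and 0.28 in the same fits. The remaining 6, mt-Co2, mt-Co3, mt-Atp6, mt-Atp8, mt-Nd3 and mt-Nd4l, had at most 12 reads in any library beside 48944 to 84152 CPM of mt-Co1, so that the table holds no measure of them.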

How the data were processed

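Total RNA from tibialis anterior was sequenced in 3 WT and 4 miR-486 KO mice, and each library is described as a separate mouse. The methods of the study give 4 mice per cohort, while the labels hold 3 WT libraries. The authors deposited whole-number counts per Ensembl gene (48795 genes and 5 summary rows, which were left out). Per the labels, HTSeq 0.6.1 counted reads that STAR 2.5.2b had aligned, after CASAVA 1.8.2 and trimming by Trim Galore 0.4.2, while the methods of the study describe Salmon. The sources used here give neither the genome build nor the strand setting of the counting, so that reads of a gene and its antisense partner cannot be told apart. Gene symbols came from GENCODE M21 (48349 of 48795 IDs matched).

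Counts were tested with edgeR 4.0.16 (quasi-likelihood F test, TMM factors, filterByExpr with a minimum count of 10, R 4.3.3). P-values were adjusted by Benjamini and Hochberg's method across 14002 genes, and 0.05 was the threshold. DESeq2 1.42.0, limma 3.58.1 (voom with sample quality weights), other scalings and filters, a replicate block and the removal of each library were alternatives. In simulated counts for KO against WT, edgeR recovered 46% of genes changed by 1 and 98% of those changed by 2 on the log2 scale, over 13820 genes. DESeq2 recovered 63% and 97%. Of the calls in these counts 4.64% were false by edgeR and 15.8% by DESeq2, above the threshold of 0.05, so that calls by DESeq2 alone are less certain. Transcript length is that of the main GENCODE transcript, and shared sequence was measured in words of 50 bases. Promoter windows came from RefSeq (GRCm38.p6).

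The genes named were, per complex, the 3 with the smallest p and the highest RPKM, those past the threshold with or without WT 3, the paralogues, Cox7a2l and Atp5a1, and from each pathway list those past the threshold with all libraries and the 2 with the smallest p. Ndufs1, Ndufs5, Sdhaf2, Cox6c2, Atp5l, Cox7c, mt-Co1, the list genes that passed without WT 3 alone and the marker genes were singled out after their values were seen. The members and lists were chosen with earlier results of these data known. The values of 1 member are not reported here, though it stays in all fits, counts and sums.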

Additional observations from a re-analysis of the deposited data

Results flagged for a closer look

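Cox6a1, the common version of complex IV subunit 6A, was at 16.5 CPM in KO 1 and at 11.5 to 12.3 CPM in the other KO libraries. The gap of KO 1 to its nearest neighbour was 0.835 of the range of the 4 KO libraries, just past Dixon's critical value for 4 samples. Chance flags about 1 in 20 groups, and 2 of the 89 tested genes passed this value.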

How the results depend on the processing

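The count over all genes, 394, was 1007 by DESeq2, 2347 by voom with quality weights and 20 to 1802 when 1 library was left out (139 without WT 2, 1802 without WT 3, and 20 to 48 without 1 KO library). Respiratory chain genes past the threshold numbered 1 by voom and 0 to 1 with 1 library left out. With 1 library left out the median log2 fold change was -0.41 to 0.055 for complex I and -0.31 to 0.055 for complex III (0.0071 by voom), and the log2 ratio of summed levels was -0.36 to 0.16 for complex IV. The upper value was in each case that without WT 3. The cause was not tested.

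Genes named by the stated rule whose sign turned by voom were Cox4i1 (0.049), Cox6b2 (0.56), Cox6c (0.060), Cox7b (0.047), Cox8a (0.023), Cox8b (0.19), Ndufa4 (0.070), Ndufb9 (0.011), Sdhb (0.12), mt-Cytb (0.21) and mt-Nd4 (0.33), and Cox6b2 also turned by DESeq2 (0.015) and with no filter (0.018). For these genes the ranges that crossed 0 with 1 library left out were -0.0063 to 0.17 for Atp5g2, -0.59 to 0.044 for Atp5h, -0.42 to 0.14 for Cox4i1, -0.65 to 0.036 for Cox6a1, -0.011 to 0.46 for Cox6a2, -0.48 to 0.029 for Cox6b1 and -0.26 to 0.22 for Cox6b2. They were -0.43 to 0.16 for Cox6c, -0.62 to 0.050 for Cox7a1, -0.37 to 0.13 for Cox7b, -0.61 to 0.11 for Cox8a, -0.34 to 0.29 for Cox8b and -0.15 to 0.15 for Ndufa4. They were -0.15 to 0.083 for Ndufb9, -0.23 to 0.19 for Sdhb, -0.60 to 0.0285 for Uqcrb, -0.40 to 0.28 for mt-Cytb and -0.33 to 0.41 for mt-Nd4. Of the genes singled out later, Cox6c2 (0.25), Cox7c (0.098) and Atp5l (0.042) also turned sign without WT 3, and Cox6c2 by voom (0.26). RLE factors, library sizes without mitochondrially encoded genes and the stricter filter turned no sign and no call of the genes named by the rule.

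Same-numbered WT and KO libraries did not deviate together (correlations of -0.31, 0.26 and -0.12), so the numbers were not taken as pairs. With the replicate number as a block, 0 genes passed (adjusted p of 0.109 for Idh2, 0.266 for Ppargc1a and 0.291 for Esrrb), and the values of Ndufa4 (0.0019) and mt-Nd4 (0.034) turned sign.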
